A study of Mus musculus with 4 samples.

Results

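The tubulins Tuba1a, Tuba1c, Tuba4a, Tubb2a, Tubb3, Tubb4b and Tubb5, the microtubule-associated protein Map4 and the tubulin-sequestering protein Stmn1 (stathmin) were measured in mouse ventricle. Their probe sets were taken by name: every probe set whose platform annotation gives exactly 1 gene symbol, where that symbol is on a list of 10 tubulins and microtubule regulators. This gave 16 probe sets of 9 genes, out of 10833 single-symbol probe sets of 8251 genes. Tuba1b, the tenth name, was not analysed here as a gene of its own. The ventricles came from mice of 6 months of age. Total RNA of 2 non-transgenic samples and of 2 samples with moderate, heart-specific transgenic overexpression of serum response factor (SRF) was each put on 1 Affymetrix oligonucleotide array. SRF is a transcription factor that activates actin and other cytoskeletal and muscle genes. Strain, sex, the promoter that drives the transgene and the number of animals behind a sample are left unstated by the labels, and the p values cover only the scatter among these 4 samples, part of which may be technical.

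Microtubules are hollow polymers of alpha- and beta-tubulin dimers. Each tubulin exists as several isotypes from separate genes whose proteins differ mainly at the C-terminal tail, and these tails are where enzymes add and remove residues and where many motors and associated proteins bind. In the cardiac myocyte a dense microtubule network surrounds the nucleus and runs between the myofibrils, where it carries cargo and resists shortening. A denser and more detyrosinated network, with more Map4 bound to it, is a known feature of hypertrophied and failing myocardium.

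Both groups had bright cardiomyocyte transcripts (Myh6, Tnni3, Tnnt2, Actc1, Myl2 and Mb), as the tissue label says. The array medians lay between 49.0 and 53.9, and log2 signals correlated at 0.973 and 0.981 within groups and at 0.961 to 0.964 across them (across probe sets, which do not count as replicates). The level of Srf is not analysed here and the overexpression was not checked. Liver transcripts set the groups apart: the summed signal of 6 hepatocyte probe sets was 1616 and 2955 in the non-transgenic samples and 93.8 and 111 in the transgenic ones. Where these liver transcripts came from was not tested. In such bulk tissue, fewer cells of a type and less RNA per cell cannot be told apart.

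Promoters of 4 of the 6 members with a called probe set are shown first, the alpha-tubulins and Tubb2a, because SRF acts through the CArG box and the alpha-tubulin isotypes moved in opposite directions; those of Tubb5 and Map4 were searched in the same way and are not printed. They are the 250 bases before the annotated start, from RefSeq on GRCm38.p6, printed 5′ to 3′, for Tuba1a at chr15:98953502-98953751 (minus strand), its neighbour Tuba1c at chr15:99029641-99029890 (plus strand), Tubb2a at chr13:34078009-34078258 (minus strand) and Tuba4a at chr1:75219295-75219544 (minus strand). Capitals mark matches, on either strand, to the CCAAT motif, to the GC box GGGCGG and to the TATA element TATAAA, and no such matches overlapped.
Tuba1a: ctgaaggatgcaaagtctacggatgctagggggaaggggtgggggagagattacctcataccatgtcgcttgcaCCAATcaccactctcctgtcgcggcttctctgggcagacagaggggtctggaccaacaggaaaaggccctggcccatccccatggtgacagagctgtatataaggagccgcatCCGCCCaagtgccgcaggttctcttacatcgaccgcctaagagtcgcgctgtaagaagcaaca
Tuba1c: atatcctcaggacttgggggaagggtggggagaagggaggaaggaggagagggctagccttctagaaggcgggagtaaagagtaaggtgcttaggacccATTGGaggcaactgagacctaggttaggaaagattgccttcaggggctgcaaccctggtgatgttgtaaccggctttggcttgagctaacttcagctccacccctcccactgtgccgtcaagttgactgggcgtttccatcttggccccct
Tubb2a: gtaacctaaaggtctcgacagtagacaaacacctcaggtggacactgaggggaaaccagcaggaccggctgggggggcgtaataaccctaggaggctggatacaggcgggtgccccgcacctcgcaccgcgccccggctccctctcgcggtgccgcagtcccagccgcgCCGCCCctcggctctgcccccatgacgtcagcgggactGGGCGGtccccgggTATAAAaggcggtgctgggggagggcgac
Tuba4a: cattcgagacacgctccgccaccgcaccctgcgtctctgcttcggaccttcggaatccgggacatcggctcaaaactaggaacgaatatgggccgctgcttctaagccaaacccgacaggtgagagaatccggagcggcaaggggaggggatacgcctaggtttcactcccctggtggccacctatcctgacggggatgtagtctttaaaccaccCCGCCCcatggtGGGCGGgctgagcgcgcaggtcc
A CArG box was searched as well and was found in 0 of the 10 windows, which belong to 9 of the 10 listed genes (Map4 has a pair of annotated starts). It occurs in 1.47% of all 32851 promoter windows of this length. Sites farther from the start were not searched, so this says nothing about binding by SRF. The TATAAA element stands only in the Tubb2a window among these 10, 29 bases before the start, against 12.4% of all windows. CCAAT was present in 7 of the 10 windows (33.8% of all) and GGGCGG in 7 (32.7% of all). The 10 windows had a GC content of 43.6% to 75.6%, against a mean of 53.2% over all windows. These shares were not adjusted for GC content. The Tuba4a window has a pair of GGGCGG matches within 35 bases of the start and no CCAAT, whereas the Tuba1a window has 1 of each and the Tuba1c window has CCAAT alone. The Tubb2a window also has a pair of GGGCGG matches and no CCAAT, although its called probe set rose. The window of Tuba8, an alpha-tubulin outside the 10 that fell, has neither motif. Whether these motifs go with the direction of change was not tested.

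In transgenic ventricle 1 probe set each rose for the alpha-tubulins Tuba1a and Tuba1c, the beta-tubulins Tubb2a and Tubb5, and Map4, and 1 fell for the alpha-tubulin Tuba4a. The second probe sets of Tubb2a and Map4 were lower in transgenic (-0.65 and -0.81 on the log2 scale, groups not overlapping) and did not pass the test, so for these genes the direction depends on the probe set. The rises were between 1.30- and 1.68-fold, and Tuba4a was 1.86-fold lower. Of the 16 probe sets, 14 passed the filter on dim probe sets, and of these 5 rose, 1 fell and the other 8 were not past the threshold (limma on log2(signal + 9), adjusted p below 0.05; p values were adjusted by Benjamini-Hochberg over the 7453 probe sets tested, here and below). Over all 7453 probe sets 4.07% (303) rose and 3.86% (288) fell, or 397 and 197 after median centring, which kept the 5 and 1 here. The median log2 change of the 14 was 0.23, against -0.0092 over all probe sets tested. In 13 of the 14 the signals of the groups did not overlap, against 55.9% of all tested probe sets. They were higher in transgenic in 9 (27.8% of all) and lower in 4 (28.1% of all). The shares over all probe sets were not matched for signal, and the 14 include pairs of probe sets of the same gene. With no trend of variance on signal in eBayes, 0 of the 14 passed in limma and 10 had an unadjusted p below 0.05 (11 with the trend), so the calls rest on that trend.

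**Figure D1:**
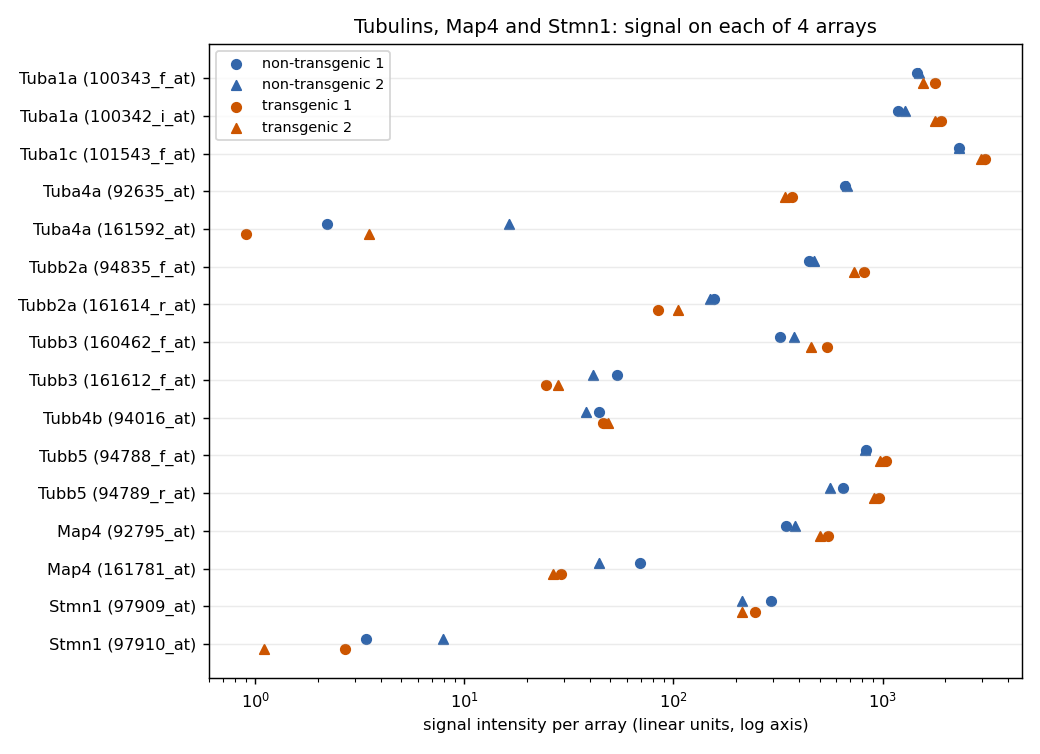
Signal intensity (log axis) of each of the 16 probe sets of the tubulins, Map4 and Stmn1 on the 4 arrays; blue is non-transgenic and orange transgenic, circles are replicate 1 and triangles replicate 2. Both arrays of a group lie close together for the bright probe sets, and the dimmest Tuba4a and Stmn1 probe sets lie below 20.

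Among the alpha-tubulins, Tuba1a encodes an isotype that is abundant in developing and nerve tissue and is made at lower levels in most others. Its probe set 100342_i_at read 1183 and 1277 in non-transgenic and 1901 and 1784 in transgenic ventricle. Both transgenic arrays lay above both non-transgenic ones, a rise of 0.58 ± 0.09 on the log2 scale (moderated SE, n = 2 each), or 1.50-fold, with an adjusted limma p of 0.0116. The second Tuba1a probe set, 100343_f_at, read 1461 and 1500 against 1773 and 1561, also without overlap. Its change of 0.17 ± 0.09 did not pass the test (adjusted p = 0.307).

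Tuba1c lies beside Tuba1a in the RefSeq annotation of GRCm38.p6, in the order Tuba1b, Tuba1a, Tuba1c, and encodes a closely related widely expressed alpha-tubulin. Its probe set 101543_f_at read 2323 and 2334 in non-transgenic and 3107 and 2962 in transgenic ventricle. The groups did not overlap, and the rise of 0.38 ± 0.07, or 1.30-fold, had an adjusted limma p of 0.0226. The call ended whichever 1 of the 4 arrays was left out (adjusted p up to 0.108). A probe set annotated to several alpha-tubulin genes, and therefore not counted here, was brighter still, at 3357 and 3671 against 3626 and 4004. There the groups overlapped, with a log2 change of 0.12 ± 0.08 (adjusted p = 0.421).

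Tuba4a, the alpha-tubulin whose gene does not encode the C-terminal tyrosine, had the largest change of the 14. Its signal was 659 and 677 in non-transgenic ventricle and 370 and 340 in transgenic ventricle. Every transgenic reading was below every non-transgenic one, and the log2 change of -0.90 ± 0.11 had an adjusted limma p of 0.00528. The call held in all 4 fits with an array left out (up to 0.0212). A second Tuba4a probe set, 161592_at, was too dim to test, at 2.2 and 16.3 against 0.9 and 3.5. Tuba8, an alpha-tubulin known from heart and skeletal muscle and not among the 10 listed genes, also fell: it read 543 and 511 against 353.9 on both transgenic arrays. The log2 change of -0.56 ± 0.11 had an adjusted limma p of 0.0246, and the call ended without any 1 of the 4 arrays (up to 0.0856). The alpha-tubulin probe sets therefore did not move as one. Those called for Tuba1a and Tuba1c rose while those called for Tuba4a and Tuba8 fell on the same arrays. The signs were the same after median centring and after quantile normalization. Whether the probe sets called for Tuba1a and Tuba1c tell these genes, or Tuba1b, apart was not tested.

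**Figure D2:**
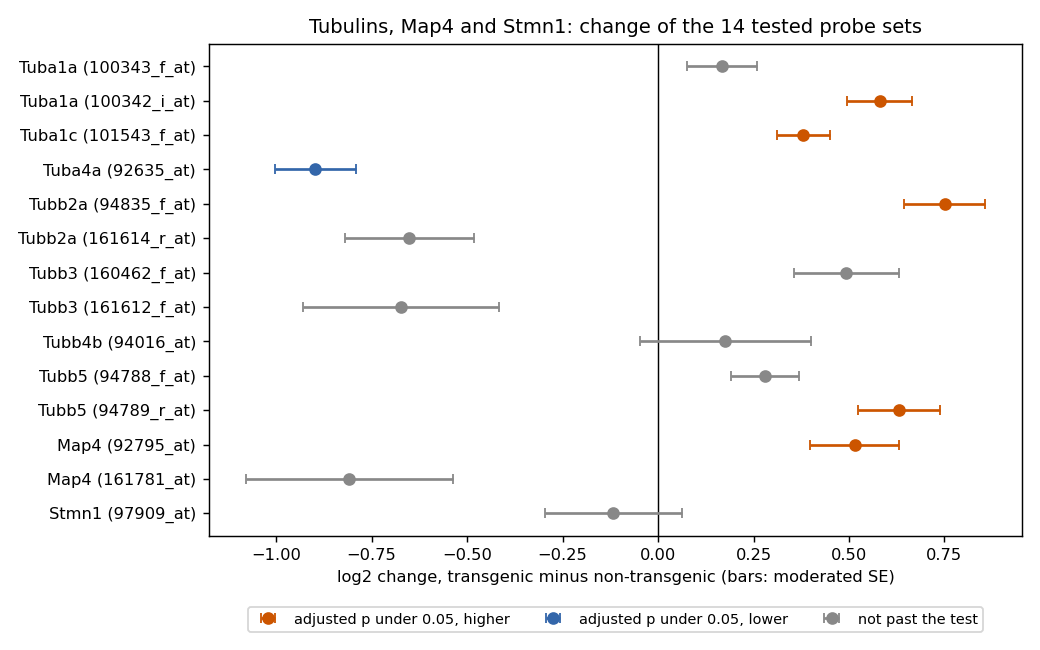
Log2 change (transgenic minus non-transgenic) of the 14 tested probe sets, with moderated standard errors as bars; orange and blue mark probe sets higher and lower at an adjusted p below 0.05, grey those that did not pass. The changes run from -0.90 for Tuba4a to 0.75 for Tubb2a, and the dimmer probe sets of Tubb2a, Tubb3 and Map4 lie left of 0.

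Of the beta-tubulins, Tubb2a encodes one of the class II isotypes, best known from brain. Its probe set 94835_f_at read 443 and 469 in non-transgenic and 817 and 731 in transgenic ventricle. It had the largest rise of the 14, 0.75 ± 0.11 or 1.68-fold, with an adjusted limma p of 0.0104, and up to 0.0399 when an array was left out. The dimmer probe set 161614_r_at went the other way, from 156 and 149 to 84.3 and 104.8, without overlap. Its change of -0.65 ± 0.17 did not pass the test (adjusted p = 0.0659), but passed when the lowest 60% of probe sets were left out (0.0443).

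Tubb5, the class I beta-tubulin found in nearly all cells, was represented by a pair of bright probe sets. The first, 94789_r_at, read 644 and 561 against 965 and 906, a rise of 0.63 ± 0.11 or 1.55-fold (adjusted p = 0.0177). Without non-transgenic replicate 2 or transgenic replicate 1 it did not pass (adjusted p up to 0.0650). The other, 94788_f_at, read 832 and 826 against 1044 and 975, with no overlap and a change of 0.28 ± 0.09 that did not pass the test (adjusted p = 0.114). Both Tubb5 probe sets had a higher signal on both transgenic arrays.

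Tubb3, the class III isotype used as a marker of neurons, had no called probe set. The brighter one, 160462_f_at, read 324 and 376 against 541 and 453, a change of 0.49 ± 0.14 (adjusted p = 0.0795). The dimmer one, 161612_f_at, read 54.0 and 41.1 against 24.6 and 28.0, a change of -0.67 ± 0.26 (adjusted p = 0.168). The groups did not overlap in either, yet the signs were opposite. Tubb4b, the class IVb isotype prominent in cilia and present in most cells, was dim at 44.1 and 38.0 against 46.0 and 48.9. Its change of 0.18 ± 0.22 was smaller than its error.

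Map4 is the main microtubule-associated protein of non-neuronal cells, binds along the lattice and stabilises it. Its probe set 92795_at read 346 and 382 in non-transgenic and 549 and 499.8 in transgenic ventricle. The rise of 0.51 ± 0.12, or 1.43-fold, had an adjusted limma p of 0.0421 and did not pass in any of the 4 fits with an array left out (up to 0.193). The dimmer Map4 probe set, 161781_at, read 69.0 and 44.3 against 29.1 and 26.6, in the opposite direction (-0.81 ± 0.27, limma adjusted p = 0.126).

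Stmn1, which binds free tubulin dimers and promotes microtubule shrinkage, was the 1 tested member whose groups overlapped. It read 292 and 212 in non-transgenic and 246 and 212.2 in transgenic ventricle, a change of -0.12 ± 0.18 (adjusted p = 0.735). Its second probe set, 97910_at, was below 8 on every array and was not tested.

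Of the 5 members with a pair of tested probe sets, Tubb2a, Tubb3 and Map4 had opposite signs and Tuba1a and Tubb5 had the same sign. In each of those with opposite signs the brighter probe set was higher and the dimmer one lower in transgenic. Opposite signs are common on these arrays, at 38.0% of the 794 genes with a pair of tested probe sets, but the pairs differed by a median of 1.17 log2 units in these 5 and of 0.25 over those 794 genes. The difference between probe sets of a gene was not tested. In Affymetrix naming, f marks a probe set whose probes also match other members of a sequence family, r one for which the selection rules were relaxed and i one with fewer unique probes. The f type made up 6 of the 14 tested probe sets of this family and 8.04% of all tested ones, so signal of one tubulin can enter the probe set of another. The falls of Tuba4a and Tuba8 and the rise of Map4 were measured on probe sets without such a mark, and so was the opposite value of the dimmer Map4 probe set. The rises of Tuba1c and Tubb2a were measured on the f type. That of Tuba1a was on the i type and that of Tubb5 on the r type.

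**Figure D3:**
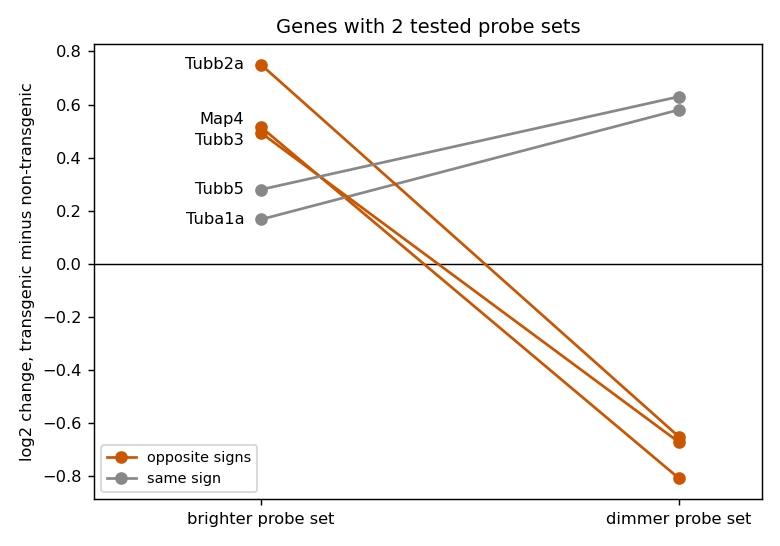
Log2 change (transgenic minus non-transgenic) of the brighter and the dimmer probe set of the 5 genes with a pair of tested probe sets; each line is 1 gene. Tubb2a, Tubb3 and Map4, in orange, cross 0, while Tuba1a and Tubb5, in grey, stay above it.

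Among other genes that build, fold, modify or use microtubules few were called. A list of 197 such genes had 119 with a probe set, and of 106 tested probe sets 3 rose, 1 fell (Tuba8) and 102 did not pass, or 3.77% called against 7.93% of all probe sets tested. Their median log2 change was 0.014. Those that rose were Dynll1, Cct3 and Clip1.

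Dynll1, a light chain of cytoplasmic dynein that also binds many other proteins, read 958 and 925 in non-transgenic and 1842 and 1692 in transgenic ventricle. This was the largest rise of the list, 0.90 ± 0.09 or 1.87-fold, with an adjusted limma p of 0.00244 that stayed at or under 0.0106 when an array was left out. It was the 1 called of 21 tested probe sets of the dynein and dynactin role. That role also holds Pafah1b genes, Nde1 and Ndel1, which are not subunits of either complex. The sister light chain Dynll2 read 1978 and 2123 against 1969 and 2170, and its groups overlapped. The Dynll1 probe set, 96298_f_at, is of the f type, so signal of related sequences can enter it. The p of Dctn6 (-0.42 ± 0.13) and Pafah1b2 (0.59 ± 0.21) came next in that group and did not pass the test (0.102 and 0.150).

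Cct3 is a subunit of the chaperonin that folds actin and tubulin. Its probe set 98153_at read 204.0 and 195 against 363 and 341, a rise of 0.79 ± 0.12 or 1.73-fold (adjusted p = 0.0135, and 0.0595 without transgenic replicate 1). The other Cct3 probe sets gave -0.08 and 0.22 and did not pass. Of 20 tested probe sets of tubulin folding Cct3 was the 1 called, and Cct4 (0.40 ± 0.11) and the cofactor Tbcb (0.48 ± 0.18) had the next smallest p (adjusted p = 0.0734 and 0.173).

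Clip1, which tracks growing plus ends and prefers tyrosinated tubulin, read 497 and 450.1 against 736 and 689.5. It rose 1.50-fold (0.58 ± 0.11, limma adjusted p = 0.0224), a call lost without non-transgenic replicate 2 or transgenic replicate 1 (up to 0.0927). It was the 1 called of 10 plus-end probe sets. The end-binding proteins Mapre1 (0.46 ± 0.16) and Mapre3 (-0.46 ± 0.19) had values of opposite sign that did not pass the test (adjusted p = 0.137 and 0.197).

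The remaining roles had 0 called probe sets in limma, with 5 at an unadjusted p below 0.05. These were Tubgcp4 of the gamma-tubulin ring (0.44 ± 0.16), the neuronal stathmins Stmn2 (-0.83 ± 0.28) and Stmn4 (-0.52 ± 0.21), the kinase subunit Camk2b (-0.88 ± 0.25) and the kinesin Kif1b (-0.54 ± 0.17). Their adjusted p values ran from 0.0873 for Camk2b to 0.192 for Stmn4 in limma. Camk2b passed in limma in the fit with a replicate block (-0.88, adjusted p = 0.0422). It also passed in limma without transgenic replicate 1 (-1.22, adjusted p = 0.0343). The other Stmn2 probe sets gave -0.28 and 0.25 and did not pass. Of the enzymes that remove acetyl groups from alpha-tubulin, Hdac6 gave 0.25 ± 0.12 and Sirt2 0.046 ± 0.15. The smallest p among lattice-binding proteins other than Map4 were those of Map7d1 (-0.21 ± 0.09) and Map6 (0.77 ± 0.35). Tubg1 (0.28 ± 0.14), Tubb6 (0.21 ± 0.14), Tubb4a (-0.15 ± 0.21), Mark3 (-0.26 ± 0.13) and Kif22 (0.38 ± 0.22) completed the named genes and did not pass.

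**Figure D4:**
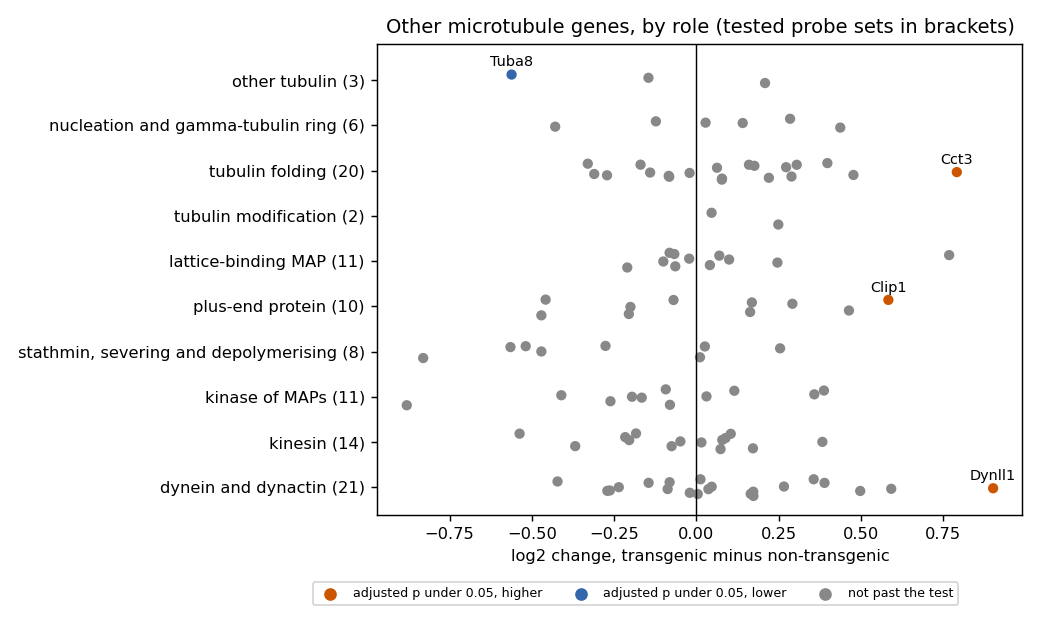
Log2 change (transgenic minus non-transgenic) of the 106 tested probe sets of other microtubule genes, 1 point each, by role; the number tested stands in brackets, and the vertical spread within a row is for legibility only. Dynll1, Cct3 and Clip1 (orange) and Tuba8 (blue) are the called ones, and the rest spread around 0.

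Several of these genes are also expressed by cells other than myocytes, so marker levels are given beside them. Fibroblast markers were higher in 6 of 12 tested probe sets and lower in 0. Of these 12, 10 had a log2 change above 0 and 2 below. Those below were Pdgfra 95079_at (-0.51 ± 0.16, groups not overlapping) and Col1a2 161156_r_at (-0.17 ± 0.12), and neither passed the test. The summed signal of fibroblast markers was 6768 to 6968 in non-transgenic and 9874 to 10194 in transgenic ventricle. In this sum Dcn alone read 3204 and 3177 against 4665 and 4569. Macrophage markers were higher in 3 of 8 and lower in 0 (1913 to 2207 against 3171 to 3224). Proliferation markers were called in 0 of 9 tested probe sets, of which 3 had an unadjusted p below 0.05 in limma (786 to 884 against 956 to 1066). These went both ways: Pcna (0.52 ± 0.16) and Mcm2 (0.77 ± 0.28) were higher, and Plk1 101350_g_at (-0.61 ± 0.21) was lower. Another tested Plk1 probe set gave 0.53 ± 0.46. Of 12 neuronal probe sets 3 were tested, and Uchl1 (153 and 124 against 349 and 366) and Eno2 (20.8 and 34.8 against 102.7 and 83.8) rose while Th read 52.6 and 48.4 against 42.8 and 55.0, with overlap. The other 9 were too dim to test: Nefh was lower on both transgenic arrays (mean 8.75 against 25.15), and Snap25, Syt1 and Nefl were at 11.0 or below on every array. The neuronal sum was 256 to 326 against 544 to 554, with Uchl1 the brightest on every array. Atrial myocyte markers were higher in 2 of 4 tested probe sets, Nppa (4.41-fold) and Myl7 (2.60-fold), with a sum of 981 to 1098 against 2964 to 3257. In this sum Nppa alone read 461 and 412 against 2024 and 1879. The Myl4 probe sets gave 0.10 and 0.92 and did not pass, and the groups overlapped in the former. Sln was too dim to test, at 10.1 and 22.8 against 19.6 and 6.6. Whether the rises of Nppa and Myl7 came from atrial or from ventricular myocytes was not tested. Of 4 tested smooth muscle probe sets Acta2 alone was called higher (3.59-fold). Tagln (0.16), Smtn (0.12) and Myh11 (-0.24) did not pass. The smooth muscle sum, which includes Cnn1, too dim to test, was 975 to 1020 against 2108 to 2196. In this sum Acta2 alone read 397 and 431 against 1478 and 1539. Skeletal muscle markers summed to 289.7 to 315 against 183 to 202, and 0 of 3 tested probe sets passed in limma, with 1 at an unadjusted p below 0.05. Endothelial markers were higher in 1 and lower in 1 of 8 (3434 to 3477 against 3612 to 3668). Of these 8, 6 had a log2 change below 0 and 2 above, with a median of -0.17. The 1 called higher was Eng, at 1331 and 1194 against 1741 and 1780. No marker was listed at 0. Cardiomyocyte markers were lower in 4 of 7 tested probe sets and higher in 0 (70156 to 71745 against 58657 to 59480). The part of these cell types, or of the liver transcripts, in the tubulin changes was not tested.

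The probe sets whose centred log2 values over the 4 arrays lay nearest to Tubb2a were those of Tmem43, Plpp3 and Cyb5r3, at Euclidean distances of 0.0488, 0.0564 and 0.0632 log2 units. Nearest to Tuba4a were Ech1, Car14 and C8g, at 0.0416, 0.0735 and 0.0792. Over 4 arrays this likeness mostly reflects an equal size of change: 0.71 to 0.76 for the former and -0.97 to -0.83 for the latter.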

How the data were processed

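Ventricular RNA of 4 samples was measured, 2 non-transgenic and 2 transgenic, grouped by the transgenic status in the labels. The deposited values are signal intensities per probe set on a linear scale; labelling followed the Affymetrix procedure per the labels' protocols, and the labels state neither signal software nor scaling. With 2% trimmed at each end, all arrays had a mean of 150.1, which hides changes shared by most RNA. Of 12488 probe sets 66 controls were left out. Annotation gave 10833 probe sets 1 symbol, 396 several and 1193 none listed; 0 symbols differed from RefSeq.

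Values were taken as log2(value + 9), 9 being the rounded 20th percentile; on this scale the changes of dim genes are understated. The lowest 40% by mean were left out and 7453 tested with lmFit and eBayes (trend) in limma 3.58.1 (R 4.3.3), as a two-sided test with Benjamini-Hochberg adjustment and a threshold of 0.05 (prior 5.05 and residual 2 degrees of freedom). The fit was tested on simulated data. The number of arrays limits precision.

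Each member probe set is named; from each role of the other list all called probe sets (at most 8) and up to 2 more with the smallest p. Members, lists and tests were chosen with earlier results of these data known. The alternatives were other pseudocounts, scalings, filters, a variance model, a replicate block and leaving out each array.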

Additional observations from a re-analysis of the deposited data

How the results depend on the processing

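The calls of the 6 members were kept with a pseudocount of 1 or 32, median centring, quantile normalization and the replicate number as a block. Without the filter on dim probe sets 3 members rose (all probe sets: 172 higher, 157 lower), Map4 and Tuba1c being lost. With the lowest 60% left out 2 fell. Without the trend of variance 0 rose and 0 fell among members and among other microtubule genes (all probe sets: 44 and 34) in limma. Leaving out an array gave 2 to 3 members higher against 5, 1 to 3 other microtubule probe sets higher, 0 to 1 lower, and 125 to 232 higher and 158 to 191 lower over all. A lone array is then assumed to vary like the other group. The replicate block, where numbers share no pairing in the data (correlation of same-numbered deviations -0.06), gave 2 other microtubule probe sets lower against 1 (Camk2b added) and changed no member call. Values not past the test changed sign when 1 array was left out: over those fits Stmn1 ran from -0.34 to 0.11, Tubb4a from -0.39 to 0.098 and Sirt2 from -0.089 to 0.18, with -0.069 for Sirt2 without non-transgenic replicate 1. Where a call was lost, the cause was not tested.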
